A study of Danio rerio with 16 samples.

Results

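The claudins of the cultured zebrafish ovary were taken as every gene listed on a main chromosome whose name begins with cldn, without the claudin domain-containing genes whose names begin with cldnd and a digit. The rule gave 28 genes of the 29629 rows that the 3 deposited tables list between them, and it used names only and no measured value. Of the 28, 26 are listed in all 3 tables, cldn1 is listed in the PNX-20 table only, and cldn20 is listed in the A8535 and PT-91 tables only. The ovaries of wild-type adult zebrafish were cut into sections and cultured for 6 h at 28 °C in medium with the solvent DMSO (the control), 100 nM PNX-20, 5 µM A8535, or 5 µM PT-91, and RNA of 4 sections per group was sequenced, giving 16 libraries. PNX-20 is a phoenixin peptide, and A8535 and PT-91 are synthetic agonists of SREB1, a receptor of the brain and gonads. All 3 treatments are compared with the same 4 control libraries. The sections of a fish were spread over the groups, so libraries of different groups can share a fish. The sources used here do not name them, and p-values below measure the spread between these libraries only.

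Claudins are membrane proteins with 4 transmembrane passes that line up in strands and seal the space between neighboring cells at tight junctions, and some of them form pores that let chosen ions or water through. The set of claudins a cell makes decides how tight its barrier is and what passes it, and sets differ between epithelia and vessel walls. In the fish ovary such barriers lie in the follicle cell layer around the oocyte, in the vessels of the follicle wall, and in the epithelium on the ovary surface, and oocytes also store maternal claudin mRNA for the embryo.

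Library totals were 10233870 to 15104959 reads assigned to genes. The tissue carried the markers of an ovary with growing oocytes. The summed level of 10 oocyte genes, such as zp3a.1 and h1m, was 6646 to 12755 CPM (TMM-scaled counts per 1e6 reads, over all 16 libraries), and that of 11 listed endothelial genes was 25.4 to 66.1 CPM. Of the 6 granulosa genes, foxl2a and foxl2b are not listed, and the other 4 summed to 14.6 to 86.7 CPM. Intestine and kidney tubule genes summed to at most 7.10 and 2.27 CPM, whereas liver genes reached 333 CPM in 1 A8535 library against at most 33.4 CPM elsewhere. Mitochondrial genes held 0.190% to 4.08% of reads, and 19047 to 23967 of the 26910 genes shared by the tables were detected per library. In bulk tissue, fewer cells of a type and less RNA per cell cannot be told apart.

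A pair of claudins held nearly all claudin reads. Per length and library size (RPKM, computed from the deposited counts and gene lengths), cldnd averaged 3168 ± 1590 (SD, n = 16) and cldng 1882 ± 475. Among 22852 main-chromosome genes listed in all tables, cldnd ranked 4 and cldng ranked 14 by mean RPKM. Both belong to the zebrafish claudins that were named by letter. The claudins as a whole took 0.231% to 0.699% of the reads of a library, and cldnd and cldng together took 91.3% to 97.6% of these claudin reads. That share was 96.7% to 97.6% in the control and 96.3% to 97.1% with PNX-20. It was 91.3% to 96.6% with A8535 and 93.4% to 96.6% with PT-91. Every library of both agonist groups thus lay below every control library, as did PNX-20 replicates 2, 3, and 4 (96.27%, 96.30%, and 96.67%). The lowest control stood at 96.75% and the highest agonist library, A8535 replicate 4, at 96.64%. The share is what the other claudins leave, and of those cldn11a had the most reads (20689 in all, then cldn12 with 7577). It therefore depends in part on the cldn11a values given below, whose groups overlap the control, and is not separate from them. Other claudins enter it too. In PT-91 replicate 2, cldn12 had 725 reads and cldn11a 570. A8535 replicate 4, below every control in the share, held 52.3 CPM of cldn11a against 80.8 CPM in control replicate 2. The 3 libraries with over 3% mitochondrial reads, A8535 replicate 2 and PT-91 replicates 1 and 2 (3.95%, 4.08%, and 3.98%), stood at 91.3%, 93.4%, and 93.6%. They also had the fewest genes detected, 19047 to 19706. The other 5 agonist libraries stood at 91.5% to 96.6%. Neither the share nor the part of mitochondrial reads or detected genes in it was tested.

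After these came cldn11a at 79.8 ± 58.9 RPKM (rank 1270), a gene whose mammalian counterpart seals the Sertoli cell barrier and the myelin sheath. It was followed by cldn12 at 11.1 ± 4.07 RPKM (rank 6338), the vessel claudin cldn5b at 7.21 ± 3.71 RPKM (rank 7586), and cldn17 at 5.53 ± 3.08 RPKM (rank 8308). Another 4 members lay between 1 and 2 RPKM: cldnc (1.63), cldn15lb (1.49), cldn5a (1.38), and cldn10a (1.34). The remaining 18 were under 1 RPKM, 8 of them under 0.1 RPKM. Each mean is over the libraries that list the gene, 8 for cldn1 and 12 for cldn20. Only 6 of the 28 had at least 10 reads in all 16 libraries, namely cldnd, cldng, cldn11a, cldn12, cldn5b, and cldn17. A further 10 reached 10 reads in no library, and cldnj and cldne had 3 reads each over the whole series. In each comparison these low genes were below the filter on low counts or not listed.

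**Figure D1:**
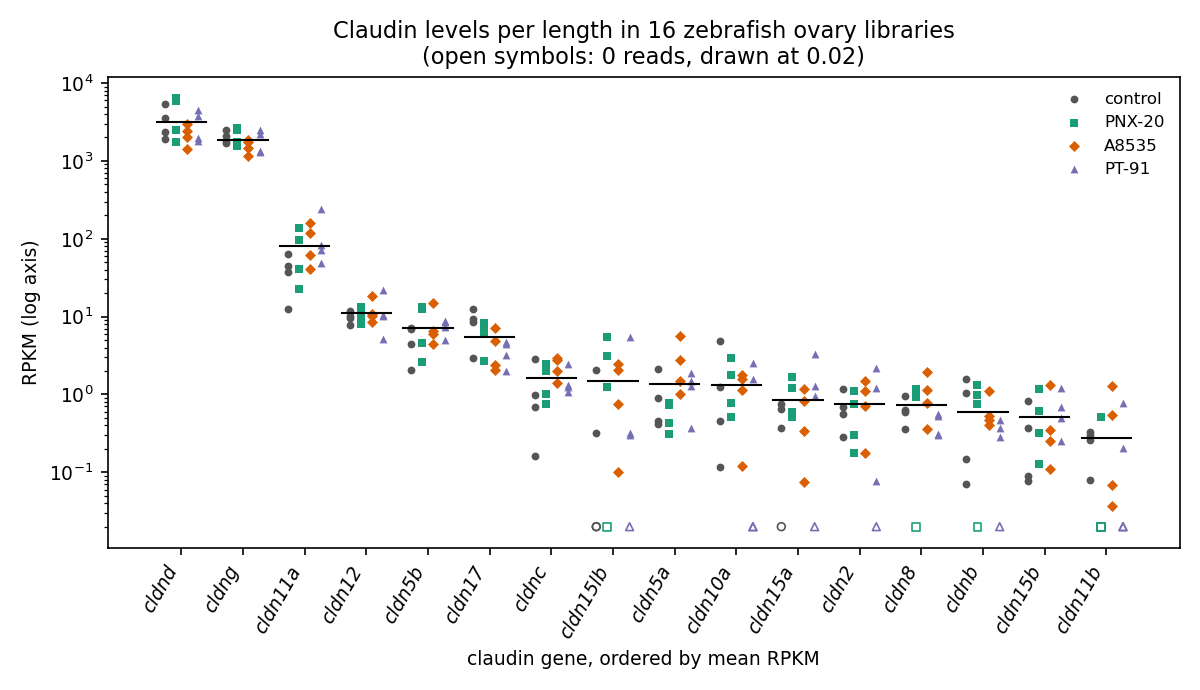
RPKM on a log axis of the 16 claudins with at least 10 reads in 4 or more libraries, in order of their mean (black line), with 1 symbol per library and the treatment given by shape and color; open symbols at 0.02 mark libraries with 0 reads. The means fall from 3168 for cldnd and 1882 for cldng to 79.8 for cldn11a and 0.274 for cldn11b.

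The ranges over the 16 libraries separated neighbors in the order of levels at 1 step. The lowest cldng value of any library, 1142 RPKM, lay above the highest cldn11a value, 239 RPKM, and the means differed by a factor of 23.6. For every other pair the ranges overlapped. Within libraries, cldnd exceeded cldng in 15 of 16, A8535 replicate 2 being the exception, and cldn11a exceeded cldn12 in all 16, with means 7.18 times apart. The next steps were less regular, with cldn12 above cldn5b in 12 libraries, cldn5b above cldn17 in 10, and cldn17 above cldnc in 14. Below cldnc, the pairs of neighbors stood in the order of their means in 2 to 13 of 16 libraries, so the order of the low claudins is not settled by these data.

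The level of cldnd varied more than that of cldng. On the CPM scale, cldnd was 1791, 4093, 1455, and 2696 in control replicates 1 to 4, and 4818, 1887, 4452, and 1315 with PNX-20. It was 1515, 1089, 2219, and 1834 with A8535, and 2856, 1362, 3381, and 1503 with PT-91. The 2 highest libraries were PNX-20 replicates 1 and 3, the lowest was A8535 replicate 2, and all groups overlapped. The coefficient of variation over the 16 libraries was 50.2% for cldnd. For cldng it was 25.2%, the lowest of the 6 most abundant claudins.

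The values of cldng were 1517, 1803, 1443, and 2109 CPM in the control and 2259, 1491, 2111, and 1327 CPM with PNX-20. With A8535 they were 1256, 1588, 973, and 1488 CPM, and with PT-91 they were 2131, 1119, 1903, and 1136 CPM. As with cldnd, the highest library was PNX-20 replicate 1 and the groups overlapped, while the lowest was A8535 replicate 3. The ratio of cldnd to cldng reads ran from 0.686 in A8535 replicate 2 to 2.28 in A8535 replicate 3, so the extremes of the series lay within 1 group.

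The abundance of cldnd was not shared by the claudin genes beside it. On chromosome 21 of GRCz11, cldnd (25777444 to 25778198, plus strand, a gene model of 755 bases with no intron) lies in a run of 7 claudin genes. From the left these are cldnh (25739296 to 25741253), cldnc (25754276 to 25756119), cldnb (25765712 to 25766840), zgc:112437, cldnd, LOC796314, and zgc:136892. The 3 that carry no cldn name are claudins in the RefSeq gene table of assembly GRCz12tu. The gene nearest to cldnd, zgc:112437, ends 2838 bases to its left and averaged 0.480 RPKM. The highest of the other 6 genes was cldnc at 1.63 RPKM, and the lowest was LOC796314 at 0.0196 RPKM. A second run on chromosome 15, of cldnj, cldne, and cldna, was near 0 throughout, at 0.00931, 0.00818, and 0.121 RPKM. By contrast, cldng stands alone on chromosome 1 (33645208 to 33647110, minus strand). Its nearest neighbor among the listed claudins is 22796138 bases away.

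**Figure D2:**
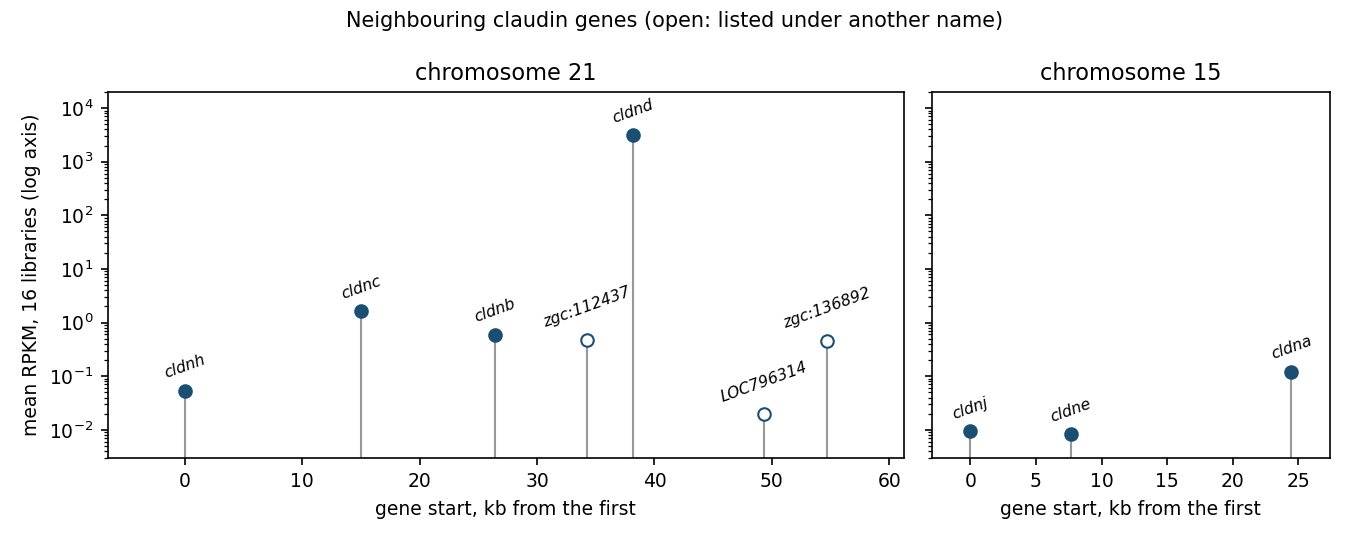
Mean RPKM over 16 libraries (log axis) of neighboring claudin genes on chromosomes 21 and 15 against the distance of each gene start from the first of its run in kb; filled points are claudins by name and open points are claudins listed under another name. On chromosome 21 cldnd stands at 3168 RPKM and the highest of its neighbors, cldnc, at 1.63.

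The 28 genes lie on 15 chromosomes, and 9 have gene models without an intron. The RefSeq table gives another name to 5 of them: cldn17 is cldn8.3 there, cldn8 is cldn8.1, cldnc is cldn3d, cldnh is cldn3c, and cldn20 is LOC101886267, so roles known for mammalian genes of these names may not carry over. Overlap with another listed gene was found for 6 members. All 5786 bases of cldn12 (chromosome 16, 43227724 to 43233509) lie antisense within adam22, which had 330 reads against 7577 for cldn12. The cldn17 model (chromosome 15, 42560557 to 42593990) spans that of cldn8 and most of zgc:110333 on the same strand. The whole of cldn2 lies antisense within rbm41, which had 3340 reads, and cldn15b meets naa38, with 13347 reads, over 112 bases. The library kit marks the strand, but the sources used here do not say whether the read counter used it. The values of the antisense members cldn12, cldn2, cldn15b, and cldn20 are therefore uncertain. Those of cldn17 and cldn8 are uncertain too, since a strand setting cannot part reads of the same strand. The overlaps are of whole gene spans, and whether reads were shared was not tested.

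By role, the claudins grouped here as ion or water pores, after mammalian genes of the cldn2, cldn10, and cldn15 names, were a minor part. These 7 (cldn2, cldn10a, cldn10b, cldn15a, cldn15b, cldn15la, and cldn15lb) had 1541 reads in all and means of 0.0379 to 1.49 RPKM. The gene named cldn17 (5.53 RPKM), cldn8.3 in the RefSeq table, was not placed in this group but with the other numbered claudins. The 8 letter-named members had 780278 reads, nearly all of them from cldnd and cldng. The 4 claudins of myelin or the Sertoli cell barrier had 20865 reads, of which cldn11a gave 20689, and the zebrafish myelin gene cldnk was at 0.0562 RPKM. The 2 vessel claudins had 2823 reads and the other 7 numbered claudins 9292. Among the latter were cldn1, of the skin barrier, at 0.114 RPKM over the 8 libraries that list it, and cldn18, of stomach and lung in mammals, at 0.140 RPKM.

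Among the abundant claudins cldn11a (chromosome 2, 25997426 to 26001126) ran widest, over 12.6 to 239 RPKM, with a coefficient of variation of 73.8%. It stood at 47.6, 80.8, 16.0, and 56.8 CPM in the control and at 124, 51.8, 172, and 28.6 CPM with PNX-20. With A8535 it stood at 77.7, 149, 204, and 52.3 CPM, and with PT-91 at 303, 61.7, 106, and 90.6 CPM. The highest library was PT-91 replicate 1 and the lowest was control replicate 3. Each treated group had 2 or 3 libraries above the highest control, and each overlapped the control.

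The gene cldn12, whose mammalian counterpart lacks the tail motif by which most claudins bind the ZO scaffolds, was more even. Its values were 42.0, 33.6, 35.9, and 27.7 CPM in the control and 46.6, 33.7, 28.5, and 42.8 CPM with PNX-20. They were 30.0, 64.5, 38.1, and 36.4 CPM with A8535 and 18.4, 78.5, 36.2, and 37.5 CPM with PT-91. Both the highest and the lowest library belonged to PT-91, replicates 2 and 1. For cldn17 the control held 3.85, 16.2, 12.0, and 10.9 CPM and PNX-20 10.8, 7.96, 3.48, and 9.67 CPM. A8535 held 9.14, 6.20, 2.66, and 3.06 CPM and PT-91 5.79, 6.17, 4.17, and 2.58 CPM. The 3 highest libraries were controls, while control replicate 1 lay within the range of each treated group.

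The vessel claudins are counterparts of the claudin that seals brain capillaries in mammals. Of the 2, cldn5b (chromosome 10, 43994471 to 43996117) had 2388 reads and cldn5a (chromosome 8, 4697764 to 4699270) 435, and both are intronless. The values of cldn5b were 7.36, 11.6, 3.43, and 11.5 CPM in the control, and 7.51, 21.9, 20.9, and 4.24 CPM with PNX-20. They were 7.41, 10.8, 24.5, and 9.96 CPM with A8535, and 12.1, 14.2, 14.4, and 8.24 CPM with PT-91. A8535 replicate 3 was highest and control replicate 3 lowest, with overlap between all groups. Levels of cldn5a were 1.34, 3.21, 0.686, and 0.629 CPM in the control and 0.469, 1.09, 1.16, and 0.645 CPM with PNX-20. With A8535 they were 4.21, 1.53, 8.44, and 2.21 CPM, and with PT-91 0.555, 1.95, 2.80, and 2.25 CPM. Again A8535 replicate 3 was the highest library, and its group overlapped the control through control replicate 2.

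**Figure D3:**
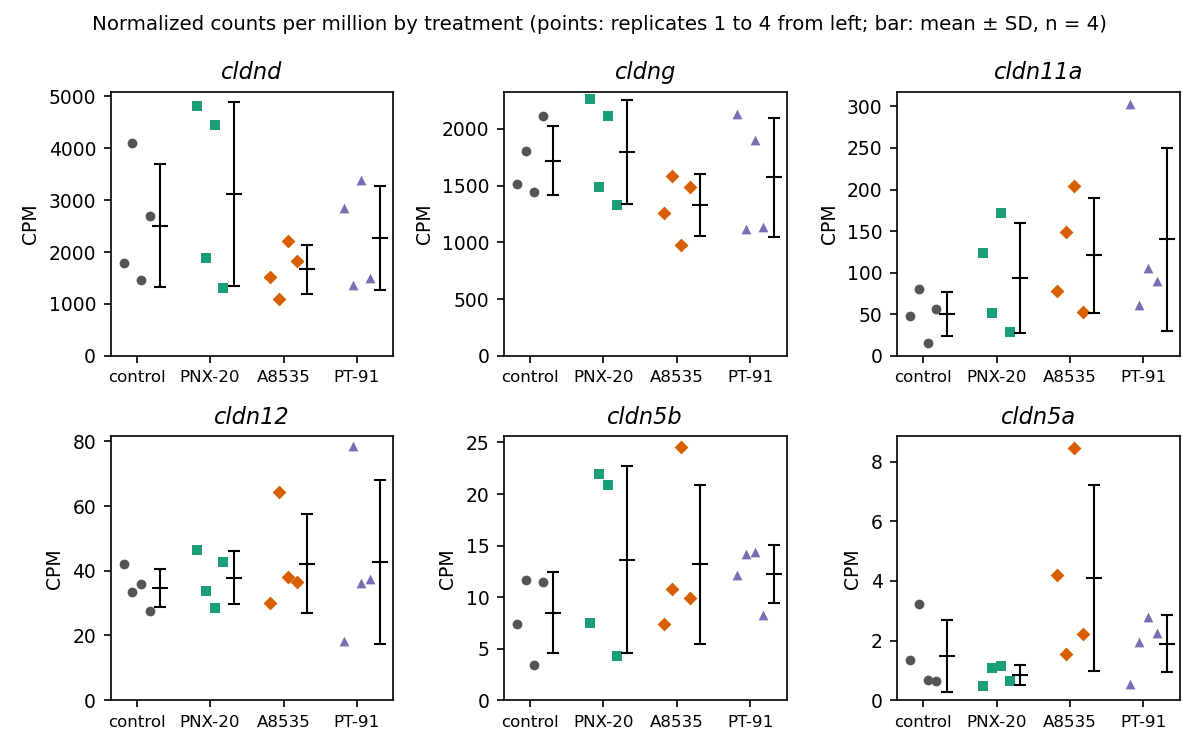
CPM (linear axis from 0) of the 5 claudins of highest mean RPKM and of cldn5a in each library of the 4 groups; points are replicates 1 to 4 from the left and the bars give the mean ± SD of 4 libraries. In every panel the treated groups overlap the control, as for cldn11a with 16.0 to 80.8 CPM in the control and 52.3 to 204 CPM with A8535.

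With PNX-20, no difference from the control was detected for any claudin tested, which does not show that there was none. After edgeR's filter on low counts, 12 of the 28 claudins were tested, 15 were below the filter, and 1 was not listed. In edgeR's quasi-likelihood test with Benjamini-Hochberg adjustment over 17118 genes, 0 genes had an adjusted p under 0.05, and 0 claudins had an unadjusted p under 0.05, against 430 of all genes (2.51%). DESeq2 called 37 genes at an adjusted p under 0.05, with 0 claudins among them, and 0 claudins at an unadjusted p under 0.05. The log2 fold change was above 0 for 9 of 12 claudins and for 48.6% of all genes, with medians of 0.23 and -0.02. No tested claudin had groups that did not overlap, where 1.66% of all genes did. These counts are of the name rule, outside which a copy of cldn7b described below had an unadjusted p of 0.0461 in edgeR.

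The claudin with the smallest p was cldn11a, with 93.2 ± 65.7 CPM in the treated libraries and 49.4 ± 26.6 CPM in the controls (SD, n = 4, on the scale of these 8 libraries, as are the means given with tests below). Its log2 fold change was 0.92 with a 95% interval of -0.44 to 2.28 (adjusted p = 0.998, edgeR), and 2 of 4 PNX-20 libraries lay above every control. The log2 fold changes of cldnd (0.33, SE 0.49), cldng (0.08, SE 0.27), and cldn12 (0.14, SE 0.27) had intervals of -0.78 to 1.43, -0.54 to 0.69, and -0.47 to 0.74. The value of cldn5b was 0.70 (SE 0.62), that of cldn5a -0.79 (SE 0.70), and that of cldn17 -0.42 (SE 0.53). For cldn15lb, of the pore group, libraries read 0.585, 3.69, 0, and 0 CPM in the control and 5.71, 2.26, 9.98, and 0 CPM with PNX-20. It had the largest log2 fold change of the 12, 2.06 (SE 1.58, adjusted p = 0.998, edgeR), which became 4.39 (SE 1.82, adjusted p = 0.902) without control replicate 2.

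With A8535, cldn11a was the 1 claudin of 11 tested with an unadjusted p under 0.05 in edgeR, where 2.48% of 17377 genes had such a p (1.76% on the higher side). A further 16 claudins were below the filter and 1 was not listed. Means were 125 ± 73.5 CPM with A8535 and 51.0 ± 27.5 CPM in its controls, and the log2 fold change was 1.30 (95% interval 0.07 to 2.53, unadjusted p = 0.0408, adjusted p = 0.999). Of the 4 A8535 libraries, 2 lay above every control. An adjusted p under 0.05 was reached by 0 genes in edgeR and by 4 in DESeq2, none of them a claudin. Without A8535 replicate 3 the value was 0.92 and without control replicate 3 it was 1.00, and the unadjusted p then stood at 0.137 and 0.0724. It also exceeded 0.05 without control replicate 1 (0.0795), control replicate 4 (0.0625), or A8535 replicate 2 (0.0836), the library of that group with the most mitochondrial reads, where cldn5a instead had an unadjusted p of 0.0467.

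Among the 11 tested claudins 8 had a log2 fold change above 0 with A8535, against 46.4% of all genes, and the medians were 0.66 and -0.04. No claudin had groups that did not overlap, against 2.08% of all genes. The next smallest p was that of cldn5a, at 4.20 ± 3.22 CPM, the control being at 1.49 ± 1.24 CPM (log2 fold change 1.49, SE 0.77, edgeR adjusted p = 0.999). The value was 0.84 to 2.22 with single libraries left out. The log2 fold change of cldn5b was 0.66 (SE 0.54) and that of cldn12 0.32 (SE 0.32). On the other side were cldn17 at -1.01 (SE 0.58), cldnd at -0.58 (SE 0.38), and cldng at -0.35 (SE 0.26). None of these 5 had an interval clear of 0. The summed level of the oocyte genes was 6646 to 10213 CPM with A8535 and 10227 to 12746 CPM in the control. Every A8535 library thus lay below every control, by a narrow margin. On the mean log2 CPM of these genes the groups overlapped. A8535 replicates 1 and 2 stood at 8.73 and 8.54, above control replicate 1 at 8.35. Of these 10 genes, 8 had a log2 fold change below 0, and 1 had an unadjusted p under 0.05 in edgeR. Of all 17377 genes 2.48% had such a p, 125 genes on the lower side. For 1 of the 10 oocyte genes every A8535 library lay below every control, as for 182 of all genes. The part of the oocyte genes in the claudin values was not tested.

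With PT-91, cldn11a was again the 1 claudin, here of 12 tested, with an unadjusted p under 0.05 in edgeR. The share of all 17276 genes with such a p was larger in this comparison, 6.81% (5.33% on the higher side). Below the filter were 15 claudins, and 1 was not listed. Mean cldn11a was 141 ± 108 CPM in the treated and 48.4 ± 25.7 CPM in the control libraries, for a log2 fold change of 1.54 (95% interval 0.27 to 2.82, unadjusted p = 0.0226, adjusted p = 0.712). Of the 4 PT-91 libraries, 3 lay above every control. At an adjusted p under 0.05 edgeR called 0 genes and DESeq2 35, with 0 claudins among them. The value was 0.79 without PT-91 replicate 1, with an unadjusted p of 0.139, and 1.22 without control replicate 3, with an unadjusted p of 0.0554. The mitochondrial share of reads was 0.190% to 1.30% in the control and 0.792% to 4.08% with PT-91, with the highest in PT-91 replicate 1. Without PT-91 replicates 1 and 2, both above 3% (chosen after seeing the data), cldn11a stood at 0.96 (SE 0.55) with an unadjusted p of 0.117. Since both agonists are set against the same controls, control replicate 3, the lowest library for cldn11a, enters both values.

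The log2 fold change was above 0 for 8 of 12 claudins with PT-91 and for 50.2% of all genes, with medians of 0.42 and 0.00. No claudin of the name rule had groups that did not overlap, against 2.78% of all genes, a share that includes rows outside the rule. Outside the rule, a copy of cldn7b described below did (unadjusted p = 0.0098, edgeR). After cldn11a came cldn17, at 4.79 ± 1.78 CPM against 10.2 ± 4.84 CPM (log2 fold change -1.10, 95% interval -2.31 to 0.11, adjusted p = 0.718, edgeR). Then came the pore claudin cldn15a (log2 fold change 1.67, SE 1.22), with 0.920, 0.803, 0, and 0.449 CPM in the control and 4.05, 0, 1.59, and 1.16 CPM with PT-91. The 2 abundant claudins stood close to the control, cldnd at -0.07 (95% interval -1.02 to 0.87) and cldng at -0.05 (95% interval -0.75 to 0.65). Intervals of this width leave room for a change of cldnd of about 1 log2 unit either way. The log2 fold changes of cldn5b, cldn5a, and cldn12 were 0.61 (SE 0.48), 0.44 (SE 0.77), and 0.40 (SE 0.44).

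**Figure D4:**
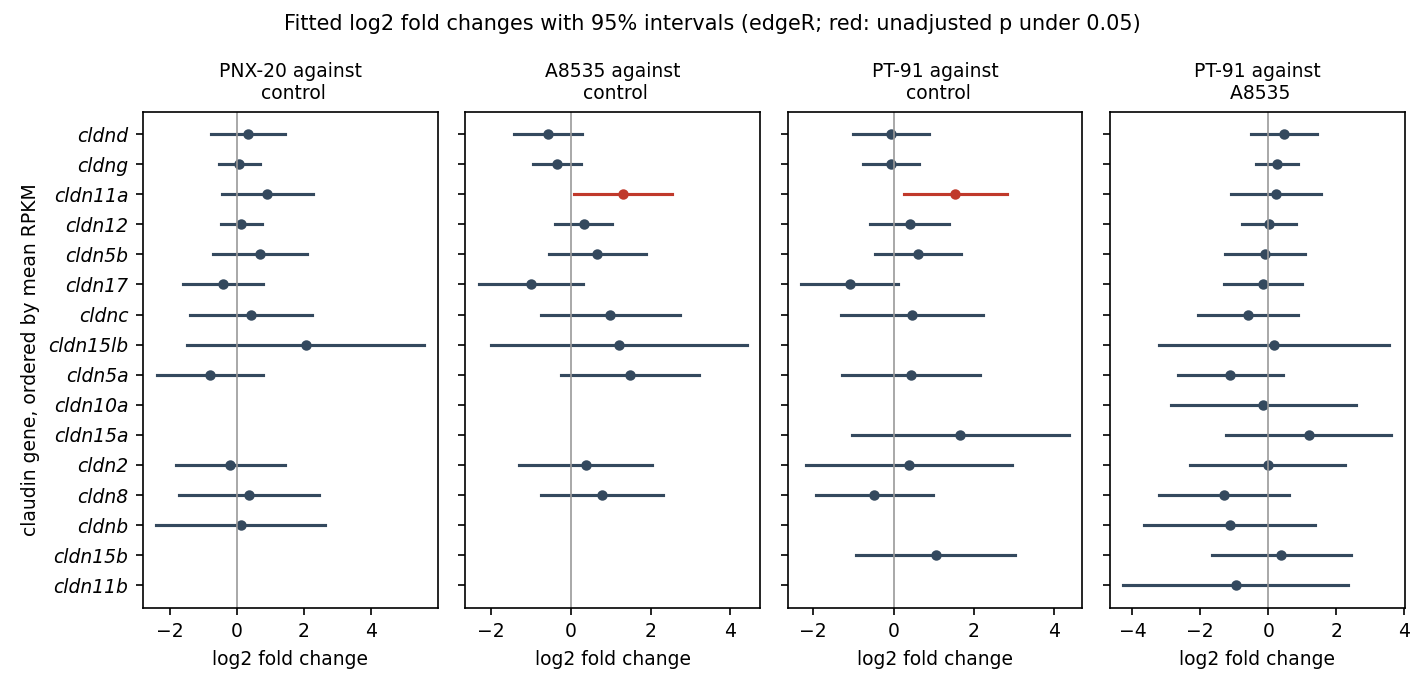
Log2 fold changes (points) and 95% intervals (lines) of each claudin tested in the 4 comparisons, in order of mean RPKM, with unadjusted p under 0.05 in edgeR in red and a gap where a claudin was below the filter. The only red values are those of cldn11a, at 1.30 with A8535 and 1.54 with PT-91.

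The 2 agonists were given at the same dose for the same time, so they were compared directly, as 1 pair of compounds over 16 claudins that passed the filter in a fit of all 16 libraries. A further 10 were below the filter and 2 were not listed in all tables. PNX-20 was given at another dose and was set against neither. No claudin had an unadjusted p under 0.05 in edgeR, where 2.26% of 19216 genes did. At an adjusted p under 0.05 edgeR gave 0 genes, and DESeq2 gave 3 genes and 0 claudins. The log2 fold change of PT-91 over A8535 was above 0 for 7 of 16 claudins, against 47.5% of all genes, with medians of -0.06 and -0.04. For cldn11a it was 0.22, with a 95% interval of -1.11 to 1.56. For cldnd it was 0.46 (-0.51 to 1.43), for cldng 0.25 (-0.37 to 0.87), and for cldn12 0.02 (-0.78 to 0.82). These intervals do not show that the compounds act alike.

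The smallest p of the agonist comparison belonged to cldn5a, at a log2 fold change of -1.12 (95% interval -2.66 to 0.43, adjusted p = 0.967, edgeR), and cldn5b stood at -0.10 (-1.27 to 1.07). Next were cldn8 at -1.30 (-3.22 to 0.62) and cldn15a at 1.19 (-1.25 to 3.62), with cldn17 at -0.15 (-1.31 to 1.00). In single libraries cldn8 read 1.46, 3.57, 2.12, and 0.681 CPM with A8535 and 0.555, 0.975, 1.06, and 0.582 CPM with PT-91. For cldn15a the A8535 libraries read 0.0914, 1.46, 0.413, and 1.02 CPM. Both compounds thus overlapped in each of these genes, and no tested claudin had groups that did not overlap, against 1.22% of all genes.

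The listed partners of claudins at the tight junction averaged from 0.0156 RPKM (f11r.2) to 91.5 RPKM. Of these the highest per length were the occludin gene oclna (91.5 RPKM), the ZO-2 scaffold gene tjp2b (75.9 RPKM), the adhesion gene f11r.1 (49.2 RPKM), and the polarity kinase gene prkci (37.6 RPKM), all far under cldnd and cldng. With PNX-20, 0 of 32 partner genes tested had an unadjusted p under 0.05. The smallest p was that of ildr2, of the angulin family (log2 fold change -1.57, SE 0.90), and of the cingulin gene cgnb (-0.62, SE 0.39). With A8535 1 of 33 and with PT-91 1 of 32 had such a p, in both cases the junctional adhesion gene jam3b, which is near or below the shares of all genes (2.48% and 6.81%). Its mean was 16.8 ± 5.43 CPM with A8535 and 7.30 ± 2.50 CPM in the controls, where the log2 fold change was 1.20 (SE 0.42, adjusted p = 0.999, edgeR). With PT-91 the means were 15.4 ± 6.24 and 6.98 ± 2.55 CPM, and the log2 fold change was 1.14 (SE 0.47, adjusted p = 0.712). All 4 libraries of each agonist lay above all 4 controls, which are the same libraries in both values. Of all genes 2.08% (A8535) and 2.78% (PT-91) had groups that did not overlap. The gene with the next smallest p was the polarity gene crb2a with A8535 (0.98, SE 0.56) and jam3a, the sister of jam3b, with PT-91 (1.72, SE 0.97).

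The median log2 fold change of the partners was -0.17 (PNX-20), -0.04 (A8535), and -0.18 (PT-91), and that of all genes was -0.02, -0.04, and 0.00. Values above 0 were held by 8 of 32, 13 of 33, and 8 of 32 partners, against 48.6%, 46.4%, and 50.2% of all genes. Between the agonists, 0 of 36 partners had an unadjusted p under 0.05, against 2.26% of all genes. Values above 0 were held by 7 of 36 partners, against 47.5% of all genes, and the medians were -0.26 and -0.04. The smallest p there belonged to f11r.1 (0.59, SE 0.30) and jam3a (2.32, SE 1.44).

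Whether claudin levels ran with those of the cells that may carry them was examined over the 16 libraries, for the 6 most abundant claudins and cldn5a against the mean log2 CPM of endothelial, granulosa, and oocyte genes. This gave 21 relations, whose points share their libraries, their depth, and in part their fish. After Benjamini-Hochberg adjustment of the permutation p-values, 4 had a Pearson p under 0.05. Of the rank correlations, only that of cldn17 with the oocyte genes did. Where group means were removed, values were permuted over all 16 libraries without allowance for those means. The p-values given for that setting are therefore too small.

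The vessel claudins ran with the 11 endothelial genes, among them the VEGF receptor gene kdrl (mean 11.9 CPM) and the junction cadherin gene cdh5 (mean 3.84 CPM). For cldn5b Pearson's r was 0.741 (permutation p = 0.00116, adjusted p = 0.0244) and Spearman's rho was 0.656 (permutation p = 0.00732, adjusted p = 0.0769). Without the 2 libraries farthest from the median endothelial level, A8535 replicate 3 and control replicate 3, r was 0.599. With group means removed it was 0.747 (permutation p = 0.00113, adjusted p = 0.0237). For cldn5a r was 0.671 (permutation p = 0.00395, adjusted p = 0.0276) and rho was 0.574 (permutation p = 0.0215, adjusted p = 0.130). It fell to 0.409 without the same 2 libraries and was 0.688 with group means removed (permutation p = 0.00382, adjusted p = 0.0401). Against the granulosa genes r was 0.546 for cldn5b (permutation p = 0.029, adjusted p = 0.102) and 0.280 for cldn5a (permutation p = 0.293, adjusted p = 0.477). Whether a claudin differed in its relation to the marker lists was not tested. In the control the summed endothelial level was 25.4 to 32.2 CPM. It was 25.7 to 49.0 CPM with PNX-20, 30.3 to 66.1 CPM with A8535, and 31.3 to 39.7 CPM with PT-91. Of 10 endothelial genes tested, 8 (PNX-20), 10 (A8535), and 8 (PT-91) had a log2 fold change above 0. An unadjusted p under 0.05 in edgeR was held by 2, 1, and 0 of them, against 2.51%, 2.48%, and 6.81% of all genes. With PNX-20, cldn5b stood at 0.70 and cldn5a at -0.79. The part of the endothelial levels in the vessel claudin values was not tested.

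For cldn11a and the granulosa genes amh, cyp19a1a, and gsdf, r was 0.689 (permutation p = 0.00309, adjusted p = 0.0276) and rho was 0.524 (permutation p = 0.0403, adjusted p = 0.169). Without control replicate 3 and PNX-20 replicate 4, the 2 libraries farthest from the median granulosa level, r was 0.357, so the relation was weaker without them. With group means removed r was 0.613 (permutation p = 0.0125, adjusted p = 0.0875). The 3 granulosa genes tested had log2 fold changes above 0 in all 3 treatments, with medians of 0.32 (PNX-20), 0.60 (A8535), and 0.65 (PT-91). None of the 3 had an unadjusted p under 0.05. Of the 4 smooth muscle genes, all had log2 fold changes above 0 with A8535 (median 0.96) and PT-91 (median 0.58), and 3 with PNX-20 (median 0.57). An unadjusted p under 0.05 in edgeR was held by 0 (PNX-20), 2 (A8535), and 1 (PT-91) of them. The shares of all genes with such a p were 2.51%, 2.48%, and 6.81%. The part of either list in the cldn11a values was not tested. For cldn17 and 10 oocyte genes r was 0.675 (permutation p = 0.00551, adjusted p = 0.0289) and rho was 0.726 (permutation p = 0.00222, adjusted p = 0.0466). It was 0.538 without PT-91 replicate 4 and A8535 replicate 3, and 0.542 with group means removed (permutation p = 0.0312, adjusted p = 0.164). The 2 most abundant claudins had an r of 0.504 (cldnd, adjusted permutation p = 0.147) and 0.595 (cldng, adjusted permutation p = 0.0731) with the same oocyte genes. For cldn12 r was -0.14 with the endothelial, -0.06 with the granulosa, and -0.13 with the oocyte genes.

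**Figure D5:**
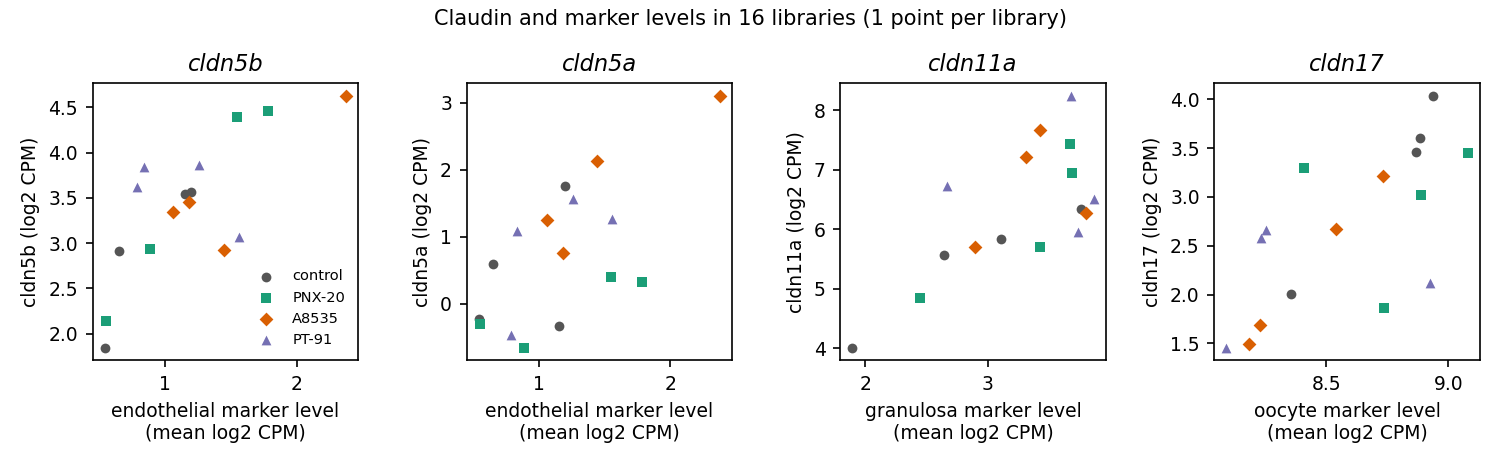
Log2 CPM (prior count 2) of 4 claudins against the mean log2 CPM of a marker list, with 1 point per library and the treatment given by shape and color. The 5 libraries lowest in oocyte genes are all of the agonist groups, and the values of r are 0.741 for cldn5b, 0.671 for cldn5a, 0.689 for cldn11a, and 0.675 for cldn17.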

How the data were processed

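RNA-seq of zebrafish ovary sections was analysed for 4 groups of 4 libraries. For the deposited raw counts per gene, the authors used fastp to clean paired reads of poly-A RNA, HISAT2 2.0.5 to align these to GRCz11, and featureCounts 1.5.0-p3. The FPKM values made by the authors, the signal values (counts the authors divided by a size factor), and the log2 fold changes and p-values of the authors' own DESeq2 comparisons are also deposited, and were not used here. The gene length in bases, also deposited by the authors, gave the RPKM computed here.

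Each table lists genes with at least 2 reads over its 8 libraries. The main test was edgeR 4.0.16 in R 4.3.3 (filterByExpr by group, TMM, robust quasi-likelihood F test), on the 8 libraries of a table, or on all 16 libraries for PT-91 against A8535. Benjamini-Hochberg adjustment ran over every gene in a fit. The SE is the log2 fold change over the square root of F. Alternatives used other scalings and filters, DESeq2 1.42.0, limma 3.58.1, a replicate block, 1 fit of all libraries, summed gene copies, and each library left out. The tests were tried on simulated counts. Of simulated 2-fold changes, 0 of 51 (PNX-20), 0 of 53 (A8535), 0 of 65 (PT-91), and 1 of 72 (between the agonists) reached an adjusted p under 0.05. Of 8-fold changes, 45 of 64, 44 of 61, 28 of 57, and 37 of 69 did. Changes of 2-fold would thus mostly be missed. Correlations used log2 CPM with a prior count of 2 and 100000 permutations. Figures were drawn with matplotlib 3.10.9.

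The claudins, roles, partners, markers, and naming rule were chosen with earlier results of these data known. The rule names the 6 claudins with the highest mean RPKM, cldn5a and cldn5b, the 3 claudins with the smallest p in each comparison, and the 4 most abundant partners with the 2 of smallest p. Beside it, role and neighboring genes are given by their means. Sequences were not analysed here.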

Additional observations from a re-analysis of the deposited data

Results flagged for a closer look

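The pore claudin cldn15lb had 1 library far from the others in 2 groups of 4. In the control, replicate 2 held 3.69 CPM and the other libraries 0 to 0.585 CPM. With PT-91, replicate 3 held 10.0 CPM and the other libraries 0 to 0.582 CPM. Of 40 groups examined, these 2 stood out, and chance alone marks about 1 group in 20.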

How the results depend on the processing

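No setting gave a claudin with an adjusted p under 0.05. The count of claudins at an unadjusted p under 0.05 was 1 with A8535, and became 2 in DESeq2 (with cldn5a), 0 in 1 fit of all 16 libraries, and 0 with a replicate block. With PT-91 it was 1, and became 2 with library size scaling, DESeq2, or 1 fit of all libraries (each with cldn17) and 2 without a filter (with cldn10b). The cause was not tested. With libraries left out in turn the count was 0 to 1 with PNX-20, 0 to 4 with A8535 (4 without control replicate 2), 0 to 2 with PT-91, and 0 between the agonists. With group means removed, 2 of 4 marker relations had an adjusted permutation p under 0.05 for Pearson's r, those of cldn5b and cldn5a. These permutations made no allowance for the removed means, so the p-values are too small and do not settle whether any relation held.

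The replicate numbers were not treated as pairs, since the labels do not describe them as such. Correlations of same-numbered libraries were -0.286 to 0.243 with the control and -0.0346 to 0.583 between the agonists. Between the agonists the median was 0.361 for the same number and -0.154 for unlike numbers (-0.37 to 0.257). For PNX-20 these medians were 0.122 and -0.0472 with A8535, and 0.206 and -0.0846 with PT-91. With the control they were -0.111 and 0.0497 (PNX-20), -0.192 and -0.106 (A8535), and -0.039 and -0.0072 (PT-91). Agonist libraries correlated best with their own number in the other agonist in 3 of 4, and control libraries with theirs in 0 to 2 of 4. PNX-20 libraries did so in 2 of 4 with A8535 and 3 of 4 with PT-91. The highest correlations with a control crossed numbers. Control replicate 1 stood at 0.617 with A8535 replicate 4 and 0.594 with PT-91 replicate 4, and control replicate 3 at 0.561 with A8535 replicate 1. Whether these libraries share a fish was not tested, and the main test treats all libraries as independent. Since the numbers are not known to mark a fish, the replicate block does not show what pairing by fish would give. Under the block cldn12 stood at -0.027 between the agonists and cldn11a at 1.21 with A8535 (unadjusted p = 0.0874). Between the agonists cldn12 also turned to -0.080 with library size scaling and cldn5b to 0.24 in limma-voom.

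With libraries left out, signs turned for cldng with PNX-20 (-0.055 to 0.20), for cldnd (-0.31 to 0.26), cldng (-0.29 to 0.066), and cldn12 (-0.16 to 0.58) with PT-91, and between the agonists for cldn11a (-0.50 to 0.60), cldn12 (-0.47 to 0.31), cldn17 (-0.37 to 0.18), and cldn5b (-0.36 to 0.39). Without the libraries over 3% mitochondrial reads, chosen after seeing the data, the count was 0 with PT-91 and 1 (cldn5a) with A8535, and cldn11a turned to -0.18 between the agonists. Without control replicate 3 and PNX-20 replicate 4, left out together after seeing the data, cldn11a stood at 0.92 with PNX-20. Only 6 claudins had 10 reads in every library, and intervals for low claudins are wide.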

Other observations

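A further 18 rows of claudins fall outside the name rule, as copies on alternate scaffolds or under other names. Only 1 of them had 10 reads in all 16 libraries, an alternate-scaffold copy of cldn7b, a claudin of epithelia in mammals, at a mean of 10.4 RPKM. It is described here because its values were seen. Its libraries read 51.5, 38.6, 22.4, and 18.8 CPM in the control, 23.6, 17.9, 14.5, and 12.4 CPM with PNX-20, 14.7, 32.6, 9.85, and 22.6 CPM with A8535, and 6.19, 9.21, 17.0, and 12.4 CPM with PT-91. All PT-91 libraries lay below all controls (log2 fold change -1.48, SE 0.47, unadjusted p = 0.0098, adjusted p = 0.712, edgeR). In that comparison 2.78% of all genes had groups that did not overlap, and 6.81% had an unadjusted p under 0.05. With PNX-20 it stood at -0.93 (SE 0.41, unadjusted p = 0.0461, adjusted p = 0.998, edgeR), where 2.51% of all genes had an unadjusted p under 0.05. With A8535 it stood at -0.68 (SE 0.47, adjusted p = 0.999, edgeR).

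The epithelial adhesion gene epcam reached 1475 CPM in PNX-20 replicate 1, the library highest in cldnd and cldng, against a median of 45.5 CPM over the series. The 4 listed epithelial genes (epcam, cdh1, krt8, and krt4) summed to 1572 CPM there, nearly all of it epcam. Over the series cdh1 and krt8 averaged 104 and 81.2 CPM, so the rise was in epcam and not in the rest of the list. Of the rows under other names, the highest were zgc:153311 (cldn33b in the RefSeq table) at 1.31 RPKM and zgc:110333 (cldn8.2) at 0.695 RPKM.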
